A study of Mus musculus with 4 samples.

Results

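Intermediate filament genes that are used in neurons and in neural progenitors were examined in the E13.5 mouse retina. The group holds 8 genes, chosen by name from the 24062 genes of the count table: the neuronal genes *Nefl*, *Nefm*, *Nefh*, *Ina* and *Prph*, the progenitor genes *Vim* and *Nes*, and the keratin gene *Krt73*. All 8 were in the table and all 8 passed the filter on low counts. RNA-seq libraries were made from 2 pools of wildtype retinas and 2 pools of *Nrf1 f/f;Six3-Cre* retinas (called mutant here, Nrf1-CKO in the labels), with each pool holding retinas of several littermates of a mixed C57BL/6 and 129 background. The wildtype libraries carry the label wild type, which names no floxed allele and no Cre. In the mutant, the Six3-Cre transgene, which is active first in the central retina, removes exon 4 of *Nrf1* from retinal progenitor cells (RPCs), so that the peripheral retina and cells of other origins can keep the gene. Nothing in the labels says that the 2 pools of a genotype came from separate litters, so p-values measure the spread between these pools, which may be partly technical.

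Intermediate filaments are rope-like polymers that give cells mechanical strength. In neurons, the light, medium and heavy neurofilament chains (*Nefl*, *Nefm*, *Nefh*) assemble with alpha-internexin (*Ina*) and, in some neurons, with peripherin (*Prph*), and these polymers fill the axon and set its calibre. Dividing neural progenitors instead carry vimentin (*Vim*) and nestin (*Nes*), and the retinal ganglion cell (RGC), the first neuron to be born in the retina and the source of the optic nerve, is the retinal cell type best known for neurofilaments.

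CPM stands for the reads of a gene relative to the library's total after scaling with TMM factors. Between 74577660 and 85933945 reads were counted on genes per library. Of 14 RPC markers, 3 were called lower, 11 were not called and 0 were called higher between the genotypes. For 9 of the 14, both mutant libraries lay below both wildtype libraries, and for 0 they lay above. Such lower values were found for 31.6% of all tested genes. The RPC markers *Pax6* (log2 fold change 0.02) and *Rax* (0.06), chosen after their values were seen, were abundant in each library. The whole-gene count of *Nrf1* was 9052 and 7789 reads in wildtype and 8594 and 8284 in mutant libraries (log2 fold change -0.03, adjusted p = 0.794, by edgeR's quasi-likelihood test with Benjamini-Hochberg adjustment), which says little about the genotype because only a single exon is deleted. The summed level of 12 lens markers was 161 and 469 CPM in wildtype and 9684 and 3980 CPM in mutant libraries, and that of 10 macrophage and microglia markers was 82.4 and 76.4 against 248 and 298 CPM. None of these 22 markers was at 0 in any library.

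Calls needed a change of 1.4-fold or more with an adjusted p no higher than 0.2. By this rule 6 of the 8 members were lower in the mutant and 0 were higher, where 8.04% of the 15762 tested genes were called lower and 12.8% were called higher. The 5 neuronal genes and *Krt73* were the called members, and the progenitor genes *Vim* and *Nes* were not called. Both mutant libraries lay below both wildtype libraries for the 6 called members, an arrangement found for 31.6% of all tested genes. For *Vim* and *Nes* the 2 mutant values were higher than each wildtype value, which held for 30.9%. The median log2 fold change of the members was -1.94, beside 0.0008 over all tested genes. In bulk RNA, fewer cells of a type and less RNA per cell cannot be told apart.

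*Nefl* encodes the light chain, on which the other neurofilament chains depend for assembly. It lies on chromosome 14 of GRCm38 from 68083863 to 68089095, on the plus strand, with 4 exons. It had 27271 and 30588 reads in wildtype and 8852 and 6651 in mutant libraries. Both mutant libraries were thus well below both wildtype libraries. On the CPM scale *Nefl* fell from 362 ± 71.4 to 93.5 ± 18.5 (SD, n = 2), to 25.8% of the wildtype mean. The log2 fold change was -1.95 with a standard error (SE) of 0.16 (edgeR, adjusted p = 0.000129).

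*Nefm*, the gene of the medium chain, is the neighbour of *Nefl* on chromosome 14 (68082590 to 68124846 on the minus strand, with the principal transcript from 68119283 to 68124846). It had 11047 and 10432 reads in wildtype and 5168 and 3335 in mutant libraries, again with no overlap between the genotypes. Its level fell from 133 ± 10.3 to 51.3 ± 15.5 CPM (SD, n = 2), to 38.4% of wildtype (log2 fold change -1.38, SE 0.17, edgeR adjusted p = 0.000696). This was the smallest change among the 6 called members. A long annotated transcript of *Nefm* shares 1108 bases of exon with *Nefl* on the other strand, 32.8% of the exons of *Nefl* and 19.2% of those of *Nefm*. The strand setting of the counting is not given in the sources used here, so reads of that stretch may have been assigned to either gene or to neither.

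*Ina* encodes alpha-internexin, a chain that appears early in newborn neurons. The gene lies on chromosome 19 from 47014698 to 47025327 and has 3 exons. It had 17155 and 16933 reads in wildtype and 5605 and 3622 in mutant libraries. The level fell from 212 ± 22.9 to 55.6 ± 16.8 CPM (SD, n = 2), or to 26.2% of wildtype, and the log2 fold change of -1.93 (SE 0.18, edgeR adjusted p = 0.000209) was close to that of *Nefl*. On the opposite strand *Nt5c2* shares 456 bases with the exons of *Ina* (14.1% of them), and *Nt5c2* itself was not called (log2 fold change -0.33).

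The heavy chain gene *Nefh*, which in most axons is switched on later than the other chains, was barely present at this stage. It lies on chromosome 11 from 4938754 to 4948064 and has 4 exons. It had 60 and 71 reads in wildtype and 5 and 1 in mutant libraries. It passed the filter through the wildtype libraries only, so its call rests on a group of 6 reads against 131. After scaling for depth, the pooled mutant reads stood at 4.47% of the wildtype reads, with an exact 95% counting interval from 1.61% to 9.99%. The interval covers counting error only. The fitted log2 fold change was -4.45 (SE 0.82, edgeR adjusted p = 0.00491), and it was -5.91 without mutant library 1 and -3.74 without mutant library 2. On the authors' normalized log2 values the difference shrank to -0.56.

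Peripherin, a filament of peripheral and some central neurons, was also rare. *Prph* lies on chromosome 15 from 99055174 to 99058978 and had 83 and 104 reads in wildtype and 28 and 12 in mutant libraries. The log2 fold change was -2.28 (SE 0.57, edgeR adjusted p = 0.0200), a fall to 20.5% of the wildtype mean in CPM, and it was -3.00 without mutant library 1. On the authors' normalized log2 values the difference shrank to -0.46, short of 1.4-fold.

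*Krt73* is a type II keratin gene, known from the inner root sheath of the hair follicle. It lies on chromosome 15 from 101793308 to 101802346, on the minus strand, with 9 exons. It had 845 and 640 reads in wildtype and 161 and 59 in mutant libraries. The level fell from 9.14 ± 0.721 to 1.33 ± 0.866 CPM (SD, n = 2), to 14.5% of wildtype (log2 fold change -2.78, SE 0.37, edgeR adjusted p = 0.000997). Without mutant library 1 the log2 fold change was -3.68, and on the authors' normalized log2 values the difference was -1.29. The keratin genes on either side of it had next to no reads: *Krt72* had 10 reads in wildtype library 2 and 0 in the other libraries, and *Krt2* had 0 reads in all 4.

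For each of the 6 called members, mutant library 2 had the lower count of the pair. The ratio of the counts between mutant libraries 1 and 2 was smallest for *Nefl* and largest for *Nefh*, the gene with the fewest reads. The lens marker sum was also lower in mutant library 2 than in mutant library 1 (3980 against 9684 CPM), as was the sum of 16 RGC markers (1111 against 1392 CPM). The part of these differences in the spread between the mutant libraries was not tested.

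**Figure D1:**
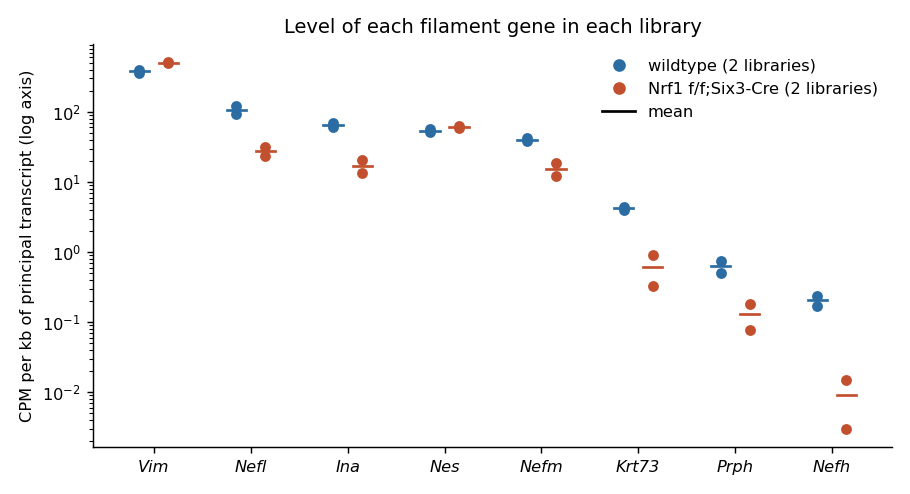
Level of each member in each library, in CPM per kilobase of principal transcript on a log axis, with points for the 2 wildtype and 2 mutant libraries and bars for their means. The mutant points of the 5 neuronal genes and *Krt73* lie below the wildtype points, while those of *Vim* and *Nes* lie slightly above.

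The progenitor filament genes took another course. *Vim*, on chromosome 2 from 13573927 to 13582826, was the most abundant member and had 69697 and 63592 reads in wildtype and 90592 and 92530 in mutant libraries. In CPM this was 827 ± 43.5 against 1104 ± 19.7 (SD, n = 2), and the log2 fold change was 0.42 (SE 0.08, edgeR adjusted p = 0.00588). The adjusted p passed the threshold, but the 1.34-fold difference did not reach 1.4-fold, so *Vim* was not called. It was not called under any alternative tried, with a log2 fold change between 0.37 and 0.48. Vimentin is also made by lens, mesenchyme, endothelium and macrophages. Of the marker lists, 11 of 12 lens, 10 of 10 macrophage and microglia, 8 of 11 endothelium and pericyte and 7 of 11 periocular mesenchyme genes were called higher. The single gene of these lists called lower was *Kdr* of the endothelium list, a receptor for VEGF (log2 fold change -0.55). It had 17486 and 15643 reads in wildtype and 11946 and 11374 in mutant libraries. Its wildtype mean was 205 CPM, where the next highest gene of that list, *Pdgfrb*, had 25.3 CPM. Which cells gave the *Kdr* reads was not tested. The endothelium sum, *Kdr* included, was 307 and 305 CPM in wildtype and 354 and 354 CPM in mutant libraries. In addition, the summed level of the mesenchyme markers was 278 and 193 CPM in wildtype and 431 and 363 CPM in mutant libraries. The mesenchyme count was 4 without wildtype library 2. Of the pigment epithelium markers 6 of 8 tested genes were called higher, and of the erythroid markers 2 of 5, or at most 1 without any single library. The part of these cell types in the *Vim* level was not tested.

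*Nes* encodes nestin, a large filament protein that assembles with vimentin in dividing progenitors. It lies on chromosome 3 from 87971078 to 87980451. It had 30637 and 23256 reads in wildtype and 29565 and 31796 in mutant libraries, and 332 ± 25.7 against 370 ± 20.1 CPM (SD, n = 2). Its log2 fold change of 0.16 (SE 0.09, edgeR adjusted p = 0.246) was not called, and with any single library left out it ranged from 0.09 to 0.24. The median over the 14 RPC markers was -0.12 on the log2 scale, with 3 called lower and 0 called higher. The 3 were *Slc1a3*, a glutamate transporter (-0.78), *Hes5*, an effector of Notch (-0.72), and the growth factor gene *Fgf15* (-0.70). Without wildtype library 2 *Hes5* was not called, at -0.47, and the count was 2.

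**Figure D2:**
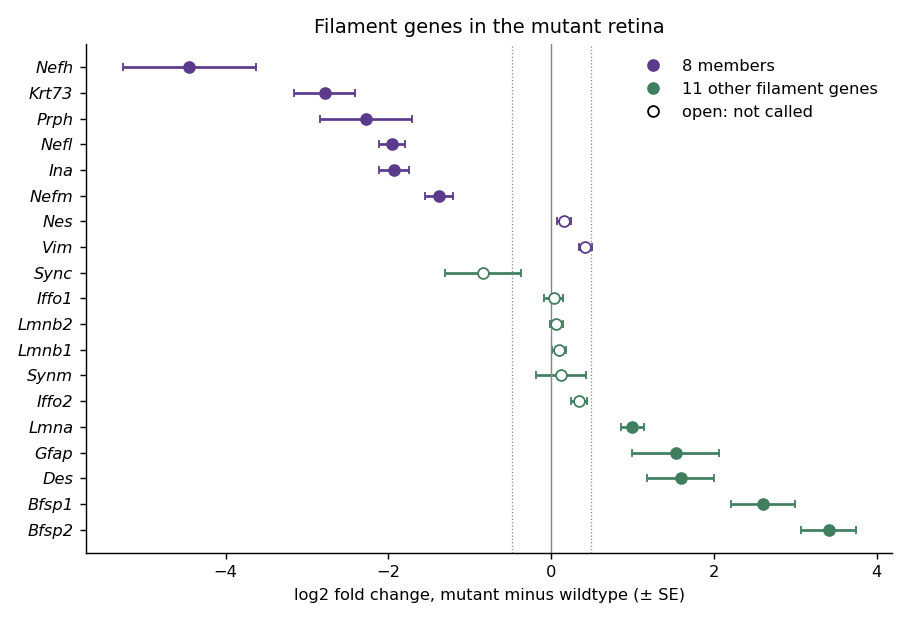
Log2 fold change of mutant against wildtype for the 8 members and 11 other filament genes, with bars for the standard error, filled points for called genes and dotted lines at 1.4-fold. The called members lie to the left of zero, from -4.45 for *Nefh* to -1.38 for *Nefm*, and the called genes of the other group lie to the right.

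Levels of the members were compared with each other per kilobase of the principal annotated transcript. In wildtype retinas the order was *Vim* (377 CPM per kilobase), *Nefl* (107), *Ina* (65.5), *Nes* (54.1), *Nefm* (40.0), *Krt73* (4.22), *Prph* (0.631) and *Nefh* (0.206). Neighbours in this order did not overlap between wildtype libraries, although *Ina* (60.5 and 70.5) and *Nes* (57.1 and 51.2) came close. In mutant retinas *Nes* (60.4 CPM per kilobase) stood above *Nefl* (27.7), *Ina* (17.2) and *Nefm* (15.4), and the libraries of *Ina* (20.8 and 13.51) and *Nefm* (18.7 and 12.1) overlapped. The 3 lowest genes kept their order.

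The make-up of the neuronal filament transcripts was described as the share of each gene in the summed level per kilobase of the 5 neuronal members. This sum was 191 and 236 CPM per kilobase in wildtype and 71.2 and 49.5 in mutant libraries. *Nefl* held 48.2% and 51.8% of it in wildtype and 44.3% and 48.1% in mutant libraries. *Ina* held 31.6% and 29.9% against 29.2% and 27.3%. *Nefm* held 19.8% and 17.9% against 26.2% and 24.4%, so that both mutant shares exceeded both wildtype shares. *Nefh* and *Prph* together stayed under 1% in each library. These shares depend on the length used. Those of *Nefl* and *Nefm*, like their levels per kilobase, also depend on how reads of the exon stretch shared by these genes were assigned, which is not known. With merged exons of all annotated transcripts, a choice made after seeing the data, *Nefm* held 11.8% in wildtype and 16.4% in mutant libraries on average, in place of 18.9% and 25.3%.

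**Figure D3:**
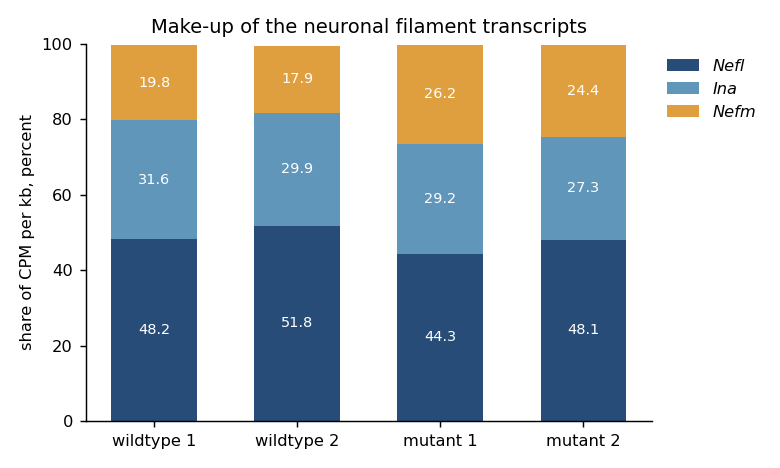
Share of *Nefl*, *Ina* and *Nefm* in the summed CPM per kilobase of the 5 neuronal filament genes, in percent, for each of the 4 libraries. The share of *Nefm* is 19.8% and 17.9% in wildtype and 26.2% and 24.4% in mutant libraries, and *Nefh* and *Prph* are too rare to be drawn.

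Ratios of read counts within a library do not depend on the scaling between libraries. For 5 pairs of members the log2 ratio was compared between genotypes with an exact two-sided permutation test, which cannot give a p below 0.333 with 2 libraries against 2. The *Nefm* to *Nefl* ratio was 0.405 and 0.341 in wildtype and 0.584 and 0.501 in mutant libraries. It depends on how reads of the exon stretch shared by these genes were assigned. Both mutant ratios were higher, by 0.54 on the log2 scale on average, which is larger than the SD within either genotype (0.18 and 0.16), with an exact p = 0.333. The *Ina* to *Nefl* ratio was 0.629 and 0.554 against 0.633 and 0.545, so that the genotypes overlapped (difference -0.01, exact p = 1.0). *Nefh* had few reads and passed the filter on low counts through the wildtype libraries only, so its ratio is given as a description. The *Nefh* to *Nefl* log2 ratio was lower by 2.96 in the mutant without overlap (exact p = 0.333). This difference was -3.91 without mutant library 1 and -2.0003 without mutant library 2, and on the deposited normalized values it turned to 1.32. The *Prph* to *Nefl* log2 ratio overlapped between genotypes (difference -0.43, exact p = 0.667), and its difference was 1.42 on the deposited normalized values. *Nes* to *Vim* was 0.440 and 0.366 in wildtype and 0.326 and 0.344 in mutant libraries, a log2 difference of -0.26 (exact p = 0.333). No pair could pass a threshold of 0.05 in this design, nor with adjustment over the 5 pairs.

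**Figure D4:**
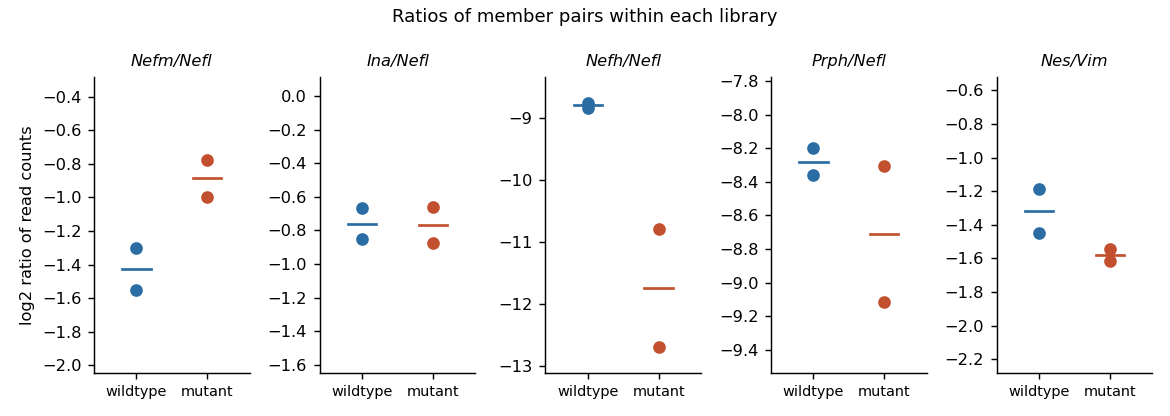
Log2 ratio of the read counts of 5 pairs of members in each library, with points for libraries, bars for the mean of each genotype and a separate axis range in each panel. The genotypes do not overlap for *Nefm* to *Nefl*, *Nefh* to *Nefl* and *Nes* to *Vim*, and they overlap for *Ina* to *Nefl* and *Prph* to *Nefl*.

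The upstream sequences of called members were read from the RefSeq promoter table of GRCm38.p6, which matched 5 of the 8 members (*Ina*, *Prph*, *Vim*, *Nes* and *Krt73*) and not *Nefl*, *Nefm* and *Nefh*. They are shown for the 3 called members that matched, since these genes fell together. Each run gives the 250 bases before the annotated start, 5′ to 3′ on the strand of the gene, and capitals mark the letters TATAAA. The windows are chr19:47014431-47014680 for *Ina* (plus strand), chr15:99054924-99055173 for *Prph* (plus strand) and chr15:101802361-101802610 for *Krt73* (minus strand).
Ina: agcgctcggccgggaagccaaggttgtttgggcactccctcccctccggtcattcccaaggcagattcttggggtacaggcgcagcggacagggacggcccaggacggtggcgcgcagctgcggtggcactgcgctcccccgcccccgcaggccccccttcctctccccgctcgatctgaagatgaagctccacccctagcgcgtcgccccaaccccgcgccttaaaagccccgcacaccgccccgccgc
Prph: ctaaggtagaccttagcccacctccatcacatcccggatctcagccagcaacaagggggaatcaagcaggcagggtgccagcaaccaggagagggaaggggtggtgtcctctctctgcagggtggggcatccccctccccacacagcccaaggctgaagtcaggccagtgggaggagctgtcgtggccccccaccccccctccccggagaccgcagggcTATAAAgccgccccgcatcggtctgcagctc
Krt73: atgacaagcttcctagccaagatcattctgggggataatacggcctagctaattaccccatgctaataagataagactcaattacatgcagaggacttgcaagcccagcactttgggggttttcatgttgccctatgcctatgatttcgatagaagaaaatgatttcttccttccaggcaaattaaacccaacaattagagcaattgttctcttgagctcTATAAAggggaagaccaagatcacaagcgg

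*Prph* and *Krt73* have TATAAA beginning 31 and 30 bases before the start, and *Vim*, which was not called, has it 32 bases before. *Ina* and *Nes* hold no such run. TATAAA was found on either strand in 13.6% of all 32851 windows of the table, counted over the whole window with the 50 bases after the start. The core of the motif bound by the NRF1 protein, GCGCANGCG on either strand, was in 0 of the 5 member windows and in 6.25% of all windows. This says only that these letters are not in these windows. The GC content of the 250 bases was 70.8% for *Ina*, 65.2% for *Prph* and 42.4% for *Krt73*, beside a median of 52.4% over all windows.

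The genes next to the members on their chromosomes were compared in the same fit. Of 14 neighbouring genes 10 were tested, 0 were called lower and 1 was called higher, *Dock5* beside *Nefl* and *Nefm* (log2 fold change 0.98, SE 0.11, edgeR adjusted p = 0.000337). The 4 that did not pass the filter, *Adam7*, *Bcan*, *Krt72* and *Krt2*, had at most 16 reads in any library. Beside *Ina*, *Pcgf6* had a log2 fold change of -0.41 (edgeR adjusted p = 0.0162), which is under 1.4-fold and not called, and *Cnnm2* had 0.13. Beside *Vim*, *St8sia6* had 0.98 on at most 109 reads (edgeR adjusted p = 0.209) and *Trdmt1* had 0.29. *Thoc5* (-0.14) and *Ap1b1* (0.08) beside *Nefh*, *Tuba1c* (-0.05) and *Troap* (0.11) beside *Prph* and *Crabp2* (-0.15) beside *Nes* were not called either.

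Among 11 other intermediate filament genes, 0 were called lower and 5 were called higher, and the median log2 fold change was 0.34. The 2 largest values were those of the beaded filament genes of the lens fibre cell. *Bfsp2* had 261 and 283 reads in wildtype and 4097 and 1872 in mutant libraries (log2 fold change 3.41), and *Bfsp1* had 211 and 234 against 2033 and 775 (2.61). Without mutant library 1 their log2 fold changes were 2.74 and 1.75. Both were higher in mutant library 1, the library with the larger lens marker sum. *Des*, the filament of muscle and pericytes, had 129 and 67 reads against 407 and 189 (1.59, or 0.94 without mutant library 1), and *Gfap*, the filament of astrocytes and stressed glia, had 22 and 54 against 115 and 118 (1.53). Without wildtype library 1, *Gfap* was no longer called, with a log2 fold change of 0.95, and without wildtype library 2 it was at 2.48. *Lmna*, a nuclear lamin of differentiated cells, was higher by 1.00. The lamins of nearly all nuclei, *Lmnb1* (0.09) and *Lmnb2* (0.06), were not called, nor were *Iffo1* (0.03), *Iffo2* (0.34), *Sync* (-0.84, edgeR adjusted p = 0.245) and *Synm* (0.12). *Sync* was called lower, at -0.83, with at least 10 reads required in every library. *Synm* was called lower, at -0.61, when mutant library 1 was left out, and higher, at 0.60, when mutant library 2 was left out. The part of lens and other tissues in these levels was not tested.

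The table held 51 keratin genes beside *Krt73*. Only 12 passed the filter, and the other 39 had at most 11 reads in any library. None of the 12 was called lower and 6 were called higher, and the median log2 fold change was 0.73. The largest changes were those of *Krt17* (2.71), *Krt14* (1.56), *Krt15* (1.45) and *Krt7* (1.43), keratins of epithelia. *Krt17* had 8 and 3 reads in wildtype and 47 and 27 in mutant libraries, so that it passed the filter through the mutant libraries only, and its log2 fold change was 3.42 without wildtype library 1. *Krt15* was at 0.85 without mutant library 1, and *Krt7* at 2.02 without wildtype library 1. The log2 fold change of *Krt73*, -2.78, lay below the values of the 12, which ran from -0.89 for *Krt222*, the single negative value, to 2.71. *Krt222* had 6 and 27 reads against 6 and 13, and its value turned to 0.74 without wildtype library 2. The list of surface ectoderm and cornea markers, which shares 7 genes with the keratins, had 7 of 10 genes called higher and a sum of 35.3 and 28.0 CPM in wildtype and 79.5 and 67.4 CPM in mutant libraries. Without mutant library 1 only 1 keratin, *Krt18*, was called, and without wildtype library 2 there were 3. The surface ectoderm count was 3 in either case.

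Cytolinkers tie intermediate filaments to other parts of the cell. Of 7 tested, 0 were called lower and 3 were called higher, *Eppk1* (1.56), *Ppl* (0.95) and *Dsp* (0.73), which serve epithelial cells. Without mutant library 1 the count was 0, without wildtype library 1 it was 1 and without mutant library 2 it was 4. The large linkers of neurons and many other cells, *Dst* (-0.24), *Macf1* (-0.08) and *Plec* (0.43), were not called, although *Plec* was called higher without wildtype library 2 (0.52) and without mutant library 2 (0.51).

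Genes for the transport, phosphorylation and turnover of neurofilaments were then examined. Of 24 tested, 10 were called lower and 0 were called higher, and the median log2 fold change was -0.25, beside 0.0008 over all tested genes. *Kif5a*, the neuronal kinesin heavy chain that carries neurofilaments along axons, had 11188 and 11033 reads in wildtype and 4585 and 3380 in mutant libraries (log2 fold change -1.53, SE 0.14, edgeR adjusted p = 0.000201). The other called genes with the largest changes were *Cdk5r2* (-1.42) and *Cdk5r1* (-1.29), the activators of the kinase Cdk5, and *Ppp2r2b* (-1.32), a neuronal subunit of protein phosphatase 2A. *Cdk5r2* rested on 191 and 179 against 103 and 39 reads, and was -2.28 without mutant library 1 and -0.89 without mutant library 2. *Kif5b*, the kinesin of most cell types, had a log2 fold change of -0.0002, and *Cdk5* itself was not called (-0.28). *Dync1i1* (1.43) and *Capn1* (0.46) were not called, but both were called higher without mutant library 2. *Dync1i1* had 16 and 30 reads in wildtype and 108 and 23 in mutant libraries, and without mutant library 1 its log2 fold change was -0.07. It was also called higher with at least 10 reads required in every library, and *Capn1* without wildtype library 1 and with upper-quartile scaling.

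The neuronal members were set beside markers of the RGC. Of 16 RGC markers, 14 were called lower and 1 was called higher, and the median log2 fold change was -1.63. All but *Rbpms*, *Rbpms2* and *Thy1* stand in the study's own list of genes lower in the mutant, drawn from these same libraries. The calls of the listed genes are therefore not independent support. Of the rest, *Rbpms2* was called lower (-0.81), *Rbpms* was not called (-0.45) and *Thy1* was called higher. The largest falls were those of *Sncg*, a synuclein (-2.44), *Mapt*, the microtubule-binding protein tau (-2.35), *Nell2* (-2.26) and *Slc17a6*, a vesicular glutamate transporter (-2.22). *Thy1* had 1 and 1 reads in wildtype and 11 and 25 in mutant libraries, so that it was close to absent at this stage. It passed the filter on low counts through the mutant libraries only, and without mutant library 2 it did not pass. The sum of the 5 neuronal filament genes fell to 28.3% of the wildtype mean (709 ± 105 to 201 ± 50.9 CPM, SD, n = 2), and that of the RGC markers to 36.7% (3411 ± 277 to 1252 ± 199 CPM). Whether these shares differ was not tested. The sum of *Vim* and *Nes* was 1158 ± 17.9 in wildtype and 1474 ± 39.8 CPM in mutant libraries.

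**Figure D5:**
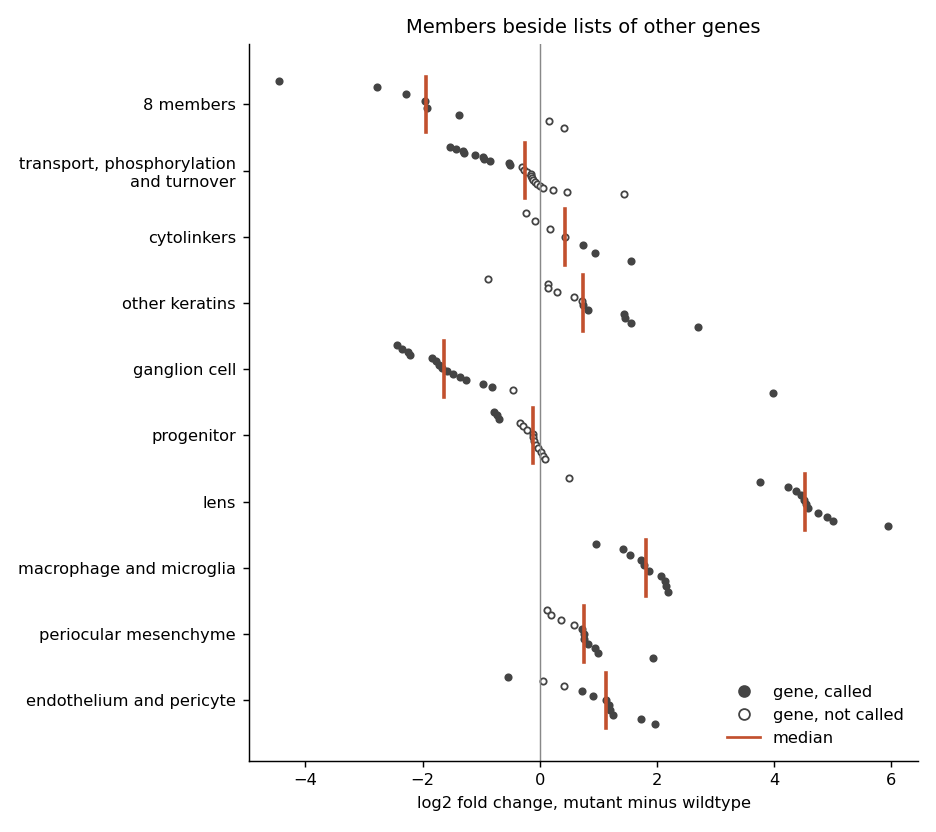
Log2 fold change of mutant against wildtype of each tested gene of the members and of 9 other lists, with filled points for called genes, open points for genes that were not called and a line at the median of each list. The medians are -1.94 for the members, -1.63 for RGC markers, -0.12 for progenitor markers and 4.52 for lens markers, and the lone RGC marker on the right is *Thy1*, with 1 read in each wildtype library.

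For each member, the tested genes of at least 5 CPM with the most similar pattern over the 4 libraries were found by the root mean square difference of centred log2 CPM. With 4 libraries this likeness is a description only. *Nefl* was closest to *Actl6b* (0.0353), *Klhl1* (0.0451) and *Islr2* (0.0517), *Nefm* to *Dnm3* (0.0203), *Gareml* (0.0324) and *Bsn* (0.0460), and *Ina* to *Rab6b* (0.0371), *Grm2* (0.0478) and *Insc* (0.0562). *Prph* was closest to *Scn3b* (0.122), *Onecut3* (0.129) and *Nell2* (0.135). *Nefh* had no gene nearer than *Gli1* (0.290), *Irx4* (0.375) and *Mstn* (0.445), and *Krt73* none nearer than *Rph3a* (0.151), *Nrn1* (0.205) and *Mstn* (0.228). The genes nearest to *Vim* were *Cercam* (0.00628), *Tbc1d4* (0.00958) and *Arhgap23* (0.0135), and those nearest to *Nes* were *Arsk* (0.00887), *Slc25a5* (0.00939) and *Sart1* (0.0106).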

How the data were processed

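The data are RNA-seq libraries of E13.5 retinas, 2 of each genotype. The authors mapped the reads to mm10 with Tophat, summed them per gene with HTSeq and deposited whole-number counts. They also deposited normalized values on a log2 scale. The submitters' processing notes name DESeq and limma without their role, and the method of the normalization, like the annotation release and the strand setting of the counting, is not given in the sources used here. In the deposited tables the column names were matched to the labels. The summary lines of HTSeq, 74.0% to 75.0% of all entries, stayed out of library sizes and tests.

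Genes were filtered with filterByExpr at a minimum count of 10, scaled with TMM factors and compared by quasi-likelihood in edgeR 4.0.16 (R 4.3.3), with Benjamini-Hochberg adjustment over 15762 genes. The call thresholds are those of the study's methods. Each standard error is the log2 fold change divided by the root of its F statistic. Cuffdiff, which the study's methods name, works from alignments, which were not used here. The scripts were tested on simulated data. Alternatives were DESeq2 1.42.0, limma 3.58.1 on the deposited log2 values, other scalings, filters and thresholds, the replicate number as a block, and each library left out. Exact tests and intervals used scipy 1.17.1. Gene positions and lengths come from GENCODE for GRCm38, the build called mm10. Reads copied by PCR do not count separate molecules, so that counting intervals cover counting error only.

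The members and lists were chosen with earlier results of these data known. The text names all members and other filament genes, up to 4 called genes of each other list with the largest fold change, the neighbours on the chromosome, the 3 genes most like each member, and *Nrf1*. Further genes in the text, such as *Kif5b*, *Cdk5*, *Capn1*, *Dync1i1*, *Krt222*, *Kdr*, *Plec*, *Dst*, *Thy1*, *Pax6* and *Rax*, were chosen after their values were seen. The result for 1 marker gene is not reported here.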

Additional observations from a re-analysis of the deposited data

How the results depend on the processing

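The count of 6 members called lower was found under every alternative but 2, and 0 members were called higher under any. With at least 10 reads required in every library, *Nefh* was not tested and the count was 5. On the deposited normalized values, tested with limma, the count was also 5, because *Prph* had a difference of -0.46, and *Nefh* and *Krt73* had -0.56 and -1.29. Those values give low genes smaller differences, and they turned the *Nefh* to *Nefl* and *Prph* to *Nefl* differences around, to 1.32 and 1.42. The difference of the *Ina* to *Nefl* ratio was near 0 and turned to 0.042 on these values, and ranged from -0.12 to 0.10 over the fits that left out a library. Over all genes, 743 lower and 1188 higher genes were called in a test against 1.4-fold, and 723 and 945 on the deposited values, in place of 1268 and 2024. With adjusted p at most 0.05, called higher were 2 keratins in place of 6, 1 cytolinker in place of 3, 4 mesenchyme genes in place of 7, 3 surface ectoderm genes in place of 7 and 1 erythroid gene in place of 2. The list for transport, phosphorylation and turnover had 0 genes called higher, but 1 with upper-quartile scaling (*Capn1*), 1 without wildtype library 1 and 2 without mutant library 2. Leaving out mutant library 1 gave the largest falls of *Nefh* (-5.91), *Krt73* (-3.68) and *Prph* (-3.00). A group left with 1 library was assumed to vary like the other group. Same-numbered libraries did not deviate together over the tested genes taken as a whole (correlation -0.0025). This cannot exclude a pairing that acts on some genes. In the fit with the replicate block the edgeR adjusted p of *Nefl* was 2.1e-06 in place of 0.000129. That of *Nefh* was 0.00374 in place of 0.00491. With the replicate block 1256 genes were called lower and 1970 higher, the 6 members stayed called, *Krt8*, *Mlana* and *Dcn* of the other lists were called in addition, *Foxc2* was not, and *Nefl* was at -1.95 and *Krt73* at -2.90. With 2 libraries per genotype, genes of few reads such as *Nefh* and *Prph* are measured with little precision.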
